A study of Mus musculus with 12 samples.

Results

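The day 3 arrays labelled Jmjd2a-depleted and Jmjd2c-depleted were compared, as 1 pooled group, with the controls of day 1. The members were chosen by their titles: 4 arrays labelled depleted at day 3, 2 for each label, and 2 control arrays of day 1. They are 6 of the 12 arrays of the series. The comparison asks how much of the difference between day 1 and day 3 controls is seen on the day 3 arrays labelled depleted. It starts from the day 1 controls and leaves out the day 1 arrays labelled depleted, so it is not a change over time in those cells. The 2 control arrays of day 3 stand beside it as the change in cells that received the control construct, and the same day 1 controls enter both differences.

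All groups are B220+ cells from the spleens of C57BL/6 mice carrying the transgene Tg(IghelMD4)4Ccg, which gives B cells a receptor for hen egg lysozyme (HEL). Magnetic beads were used to isolate the cells, and the culture held an antibody to CD40, interleukin-21 (IL21) and HEL. The day 3 groups labelled depleted received a construct against Jmjd2a or against Jmjd2c, and the day 3 and day 1 control groups a non-targeting one. The labels speak of siRNA in some fields and of virus with shRNA in others, and both day 3 control arrays carry the same short name while their titles number them 1 and 2. The titles call the arrays of a group biological replicates but name no separate cultures or animals, so p-values measure only the spread between these samples. RNA was hybridised to Affymetrix arrays, and the values are deposited log2 levels of probe sets, where a difference of 1 is a 2-fold difference.

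Follicular helper T cells drive antigen-binding B cells to divide and to become plasma cells, and CD40 ligand and IL21 are among their signals. Dividing cells pass through DNA replication and mitosis, each with its own set of induced genes, and the transcription factor Myc drives ribosome production in activated lymphocytes. Jmjd2a and Jmjd2c are the older names of Kdm4a and Kdm4c, enzymes that remove methyl groups from lysine 9 of histone H3, a mark of silent chromatin.

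Neither targeted transcript passed a limma test of both day 3 labels pooled, which for each gene includes arrays with the construct against the other gene. The limma adjusted p was 0.913 for Kdm4a and 0.985 for Kdm4c against day 1 controls, and 0.146 and 0.599 against day 3 controls. Kdm4a read 8.08 and 8.05 on the day 3 arrays labelled Jmjd2a-depleted, 8.20 and 8.17 in day 3 controls, and 7.90 and 7.92 in day 1 controls. Kdm4c read 7.81 and 7.78 on the day 3 arrays labelled Jmjd2c-depleted, 7.96 and 7.56 in day 3 controls, and 7.78 and 7.84 in day 1 controls. Neither label alone was tested against day 3 controls, and the groups are called by their labels. Of the B cell markers, Cd79b read 11.42 to 11.51 on the 4 day 3 arrays labelled depleted, 12.05 to 12.07 in day 3 controls, and 11.15 to 11.16 in day 1 controls. Ms4a1, Ptprc and Cd22 were also bright in all 3 groups, and Cd79a lay lower at 6.80 to 7.12. None of these markers passed the test between day 3 labelled depleted and day 1 control. Day 3 control replicate 2 stood apart, with an 18S ribosomal RNA level of 10.73 against 12.10 to 12.34 on the day 3 arrays labelled depleted, 12.54 on the other day 3 control and 12.68 to 12.73 in day 1 controls. The SD between replicates was taken as the square root of the mean variance over probe sets. It was 0.26 in day 3 controls, against 0.12 for both day 3 labels and 0.12 in day 1 controls.

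Few transcripts separated the day 3 arrays labelled depleted from day 1 controls in the fit of all arrays, and more of them were higher than lower. In a limma model of all 12 arrays, 145 of 45037 probe sets passed an adjusted p of 0.05 (0.322%), 108 higher and 37 lower. With each gene taken as its brightest probe set, 68 of 18193 genes were higher (0.374%) and 2 were lower (0.011%). For the controls alone, day 3 against day 1, 10741 probe sets passed (23.8%). Against day 3 controls, 9437 probe sets separated the day 3 arrays labelled depleted (21%). The day 1 controls do not enter that difference, though they share in its estimate of the spread. The median absolute difference over probe sets was 0.08 for day 3 labelled depleted against day 1 control, and 0.21 for day 3 control against day 1 control. The number of calls depended on the arrays that set the spread: it was 3090 with only the 6 arrays compared (1225 higher, 1865 lower), 579 without day 3 control replicate 2 (304 higher, 275 lower), and 1264 with the 4 and 2 arrays as plain groups (625 higher, 639 lower). It was 16 without day 1 control replicate 1 and 28 without day 1 control replicate 2, and 47, 63, 54 and 93 without 1 of the day 3 arrays labelled depleted (Jmjd2a replicates 1 and 2, Jmjd2c replicates 1 and 2).

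Of the 68 genes that were higher, 67 had a mean between those of the day 3 and day 1 controls and were also lower than in day 3 controls past the test. The exception was Hspa1b. All 70 called genes kept their direction when any 1 of the 6 arrays was left out, and 8 of them kept their call each time: Gzma, Gzmb, S100a4, Gbp2, Fnbp1l, Ifitm1, Myo1f and 2900026A02Rik.

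Genes of cytotoxic granules were among the largest rises. Gzma, a serine protease that NK cells and T cells release to kill targets, read 8.65, 8.42, 8.79 and 8.37 on the day 3 arrays labelled depleted, 10.88 and 10.85 in day 3 controls, and 5.83 and 6.36 in day 1 controls. The groups did not overlap, and the arrays labelled depleted lay near the middle of the log scale between the control days. The log2 difference from day 1 controls was 2.46 ± 0.24 (SE, limma adjusted p = 0.00106), against 4.77 for day 3 controls. Gzmb, another granule protease, read 8.06, 7.82, 8.29 and 7.88 on the day 3 arrays labelled depleted, 10.17 and 9.95 in day 3 controls, and 5.68 and 5.95 in day 1 controls. Its difference from day 1 controls was 2.20 ± 0.14 (limma adjusted p = 2.73e-05), the difference of day 3 controls was 4.25, and the arrays labelled depleted were lower than day 3 controls by the limma test (log2 difference -2.05).

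The other NK cell markers did not pass. Of 10 NK cell markers measured, 2 were higher and 0 lower on the day 3 arrays labelled depleted, where 0.374% of all genes were higher. The median log2 difference was 0.53, against 0.01 over all genes. The differences of 9 of the 10 were positive, all but that of Ncr1. With no overlap of arrays, 6 lay above day 1 controls, as did 12.8% of all genes. In day 3 controls 7 of the 10 were higher than in day 1 controls, where 11.2% of all genes were higher and 17.2% lower, with a median of 1.86. The summed linear level of the 10 markers was 946 to 1199 on the day 3 arrays labelled depleted, 3765 to 3980 in day 3 controls and 395 to 446 in day 1 controls. On the day 1 arrays labelled depleted, which are outside this comparison, it was 940 to 1494. Without Gzma and Gzmb, the other 8 summed to 378 to 445 on the day 3 arrays labelled depleted, 922 to 939 in day 3 controls and 287 to 302 in day 1 controls. Ncr1, an activating receptor that defines NK cells, had a mean of 3.99 on the day 3 arrays labelled depleted, 4.36 in day 3 controls and 4.05 in day 1 controls, all under the median of all probe set means (5.22). Klra8 and Eomes also lay under that median. The part of NK cells in the granzyme rises was not tested, and in bulk RNA more cells of a type and more RNA per cell cannot be told apart.

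**Figure D1:**
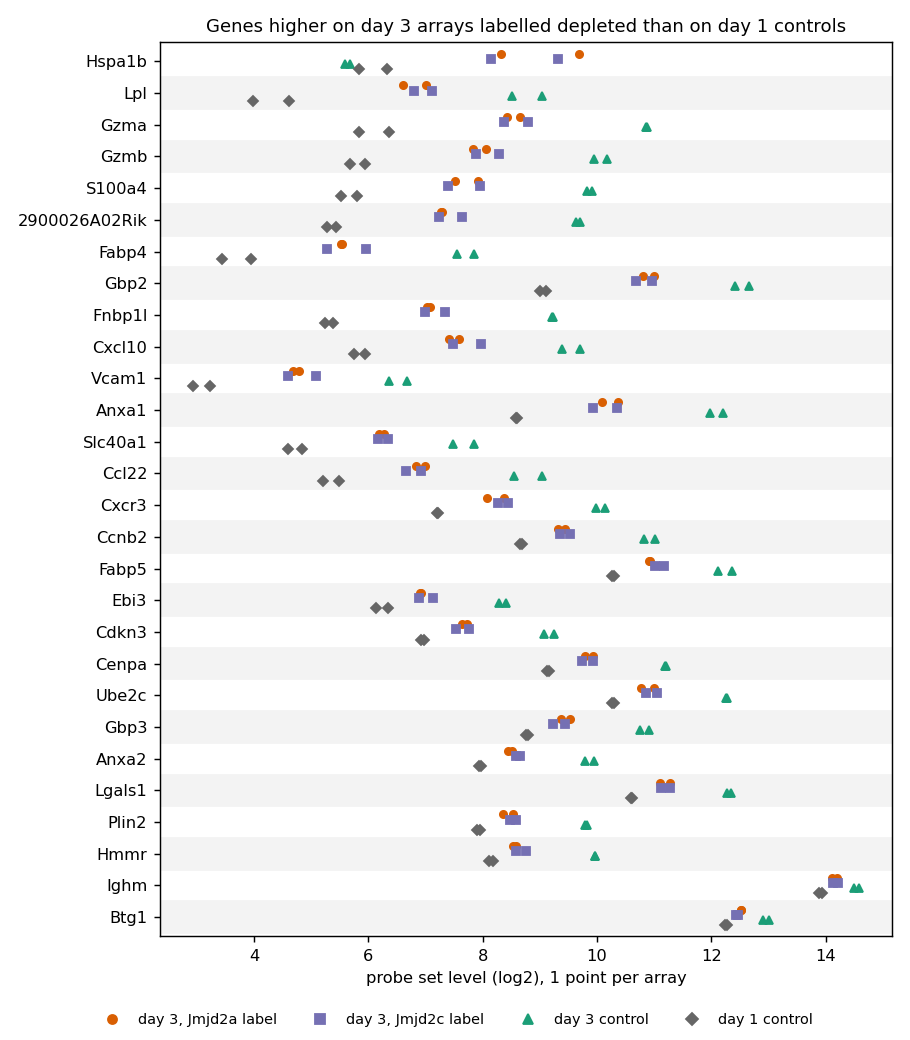
Each point is 1 array's deposited log2 level (horizontal axis) of a gene (row), for day 3 arrays labelled Jmjd2a-depleted and Jmjd2c-depleted, day 3 controls and day 1 controls. In every row but that of Hspa1b, the 4 arrays labelled depleted lie above both day 1 controls and below both day 3 controls.

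Macrophage genes showed the same order. Vcam1, an adhesion molecule of splenic macrophages and stromal cells, read 4.79, 4.68, 5.09 and 4.59 on the day 3 arrays labelled depleted, 6.68 and 6.36 in day 3 controls, and 2.93 and 3.23 in day 1 controls. Slc40a1, the iron exporter ferroportin of red pulp macrophages, read 6.27, 6.19, 6.35 and 6.16 on the day 3 arrays labelled depleted, 7.85 and 7.47 in day 3 controls, and 4.83 and 4.59 in day 1 controls. Neither gene overlapped between groups. Vcam1 was higher than in day 1 controls by 1.71 ± 0.21 and Slc40a1 by 1.53 ± 0.25 (SE, limma adjusted p = 0.00504 and 0.0241). The other probe sets of both genes did not pass: those of Vcam1 differed by -0.01 and 0.34, the first of them of nearly the same brightness, and that of Slc40a1 by 0.93. In day 1 controls both genes lay under the median of all probe set means (5.22), where a level may not be above background. The call of Vcam1 ended without either day 1 control, and that of Slc40a1 without any 1 of the 6 arrays.

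Of 20 macrophage and monocyte markers, those 2 passed and 18 did not, where 0.374% of all genes were higher. The median log2 difference was 0.56, and 18 of the 20 differences were positive. With no overlap of arrays, 16 of the 20 lay above day 1 controls, as did 12.8% of all genes. Cd5l, a secreted macrophage protein, differed by 1.26 (limma adjusted p = 0.0808), and Mrc1, the mannose receptor, by 1.22 (limma adjusted p = 0.19). Csf1r, the growth factor receptor that macrophages need, differed by 0.56 (limma adjusted p = 0.699). In day 3 controls 14 of the 20 were higher than in day 1 controls and 0 lower, with a median of 1.73, where 11.2% of all genes were higher and 17.2% lower. The summed linear level of the list was 2273 to 2568 on the day 3 arrays labelled depleted, 5281 to 5447 in day 3 controls and 1524 to 1547 in day 1 controls. On the day 1 arrays labelled depleted, which are outside this comparison, it was 5808 to 12859, above all these groups. Cd14, Cd163 and Clec4a3 lay under the median of all probe set means. Of 13 T cell markers 0 passed on the day 3 arrays labelled depleted, with a median of 0.21 (summed level 1079 to 1201, 1522 to 1641 in day 3 controls and 981 to 991 in day 1 controls). Neutrophil, dendritic, erythroid and platelet, stromal, and basophil and mast cell markers also had 0 members past the test, with medians of 0.02 to 0.13. Many of these lay under the median of all probe set means in all 3 groups: 6 of 10 neutrophil, 2 of 11 dendritic, 7 of 10 erythroid and platelet, 7 of 8 stromal, and 5 of 7 basophil and mast cell markers. Neutrophil markers summed to 292 to 332 on the day 3 arrays labelled depleted, 551 to 625 in day 3 controls and 228 to 236 in day 1 controls. The part of other cells in these rises was not tested.

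Genes of fatty acid uptake and storage were higher as well. Lpl, the lipase that frees fatty acids from circulating lipoproteins, read 7.01, 6.61, 7.10 and 6.80 on the day 3 arrays labelled depleted, 9.04 and 8.51 in day 3 controls, and 3.99 and 4.61 in day 1 controls. The groups did not overlap, and the difference from day 1 controls was 2.58 ± 0.35 (SE, limma adjusted p = 0.00814), against 4.47 for day 3 controls. A dimmer probe set of Lpl differed by 0.85 and did not pass (limma adjusted p = 0.161). Fabp4, a fatty acid carrier of fat cells and macrophages, read 5.54, 5.52, 5.96 and 5.28 on the day 3 arrays labelled depleted, 7.85 and 7.54 in day 3 controls, and 3.94 and 3.43 in day 1 controls. Its relative Fabp5 read 10.93, 10.92, 11.16 and 11.02 on the day 3 arrays labelled depleted, 12.12 and 12.36 in day 3 controls, and 10.30 and 10.26 in day 1 controls. Fabp4 was higher than in day 1 controls by 1.89 ± 0.29 and Fabp5 by 0.73 ± 0.09 (limma adjusted p = 0.0164 and 0.00573). In day 1 controls Lpl and Fabp4 lay under the median of all probe set means (5.22), so the size of their difference is less certain. Plin2, a coat protein of lipid droplets, was higher by 0.56 ± 0.09 (limma adjusted p = 0.0265). These were the 4 of 19 lysosome and lipid genes that passed, where 0.374% of all genes were higher. The list's median was 0.30. In day 3 controls 13 of the 19 were higher than in day 1 controls and 1 lower (median 0.78), where 11.2% of all genes were higher and 17.2% lower. Between 0 and 3 of the 19 passed with 1 of the 6 arrays left out, and 0 passed without either day 1 control.

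Calcium-binding S100 and annexin proteins and galectins were also among the rises. S100a4, a calcium-binding regulator of cell movement, read 7.92, 7.52, 7.94 and 7.39 on the day 3 arrays labelled depleted, 9.90 and 9.82 in day 3 controls, and 5.53 and 5.80 in day 1 controls. The lowest array labelled depleted lay 1.59 above the higher day 1 control. Anxa1, a phospholipid-binding protein with anti-inflammatory actions, read 10.37, 10.08, 10.34 and 9.94 on the day 3 arrays labelled depleted, 12.20 and 11.98 in day 3 controls, and 8.60 and 8.57 in day 1 controls. The differences from day 1 controls were 2.03 ± 0.17 for S100a4 and 1.59 ± 0.17 for Anxa1 (SE, limma adjusted p = 0.000338 and 0.00146). Lgals3, a galectin abundant in macrophages, was higher by 1.15 ± 0.21, Anxa2 by 0.60 ± 0.08 and Lgals1 by 0.59 ± 0.08 (limma adjusted p = 0.0437, 0.00711 and 0.00775). Of the 16 genes 5 were higher and 0 lower (median 0.51), where 0.374% of all genes were higher. Of the 16, 12 lay above day 1 controls with no overlap of arrays, as did 12.8% of all genes. S100a6 differed by 0.80 and S100a10 by 0.73 without passing (limma adjusted p = 0.0537 and 0.0827), although a dimmer S100a10 probe set passed (0.63). In day 3 controls 13 of the 16 were higher than in day 1 controls and 2 lower, with a median of 1.59, where 11.2% of all genes were higher and 17.2% lower. Without 1 of the 6 arrays, 1 to 4 of the 16 passed, with 1 without either day 1 control.

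Mitosis was the list with the most called members. Ccnb2, a cyclin that drives entry into mitosis, read 9.44, 9.31, 9.52 and 9.35 on the day 3 arrays labelled depleted, 10.82 and 11.01 in day 3 controls, and 8.66 and 8.69 in day 1 controls. Cenpa, the histone H3 variant of centromeres, read 9.92, 9.79, 9.93 and 9.74 on the day 3 arrays labelled depleted, 11.18 and 11.21 in day 3 controls, and 9.13 and 9.15 in day 1 controls. Ube2c, the ubiquitin-conjugating enzyme of the anaphase-promoting complex, read 11, 10.77, 11.06 and 10.85 on the day 3 arrays labelled depleted, 12.28 and 12.25 in day 3 controls, and 10.30 and 10.27 in day 1 controls. In all 3 genes the arrays labelled depleted stood closer to day 1 than to day 3 controls, with no overlap. The differences from day 1 controls were 0.73 ± 0.08 for Ccnb2, 0.70 ± 0.07 for Cenpa and 0.63 ± 0.07 for Ube2c (SE, limma adjusted p = 0.00146, 0.00134 and 0.00325). Hmmr, a spindle protein, was higher by 0.47 ± 0.07 (limma adjusted p = 0.0227), and Cdkn3, a phosphatase that acts on Cdk1 and Cdk2, by 0.72 ± 0.09 (limma adjusted p = 0.00749).

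Of 29 mitosis genes, 9 were higher than in day 1 controls and 0 lower, where 0.374% of all genes were higher. The median difference was 0.32. The differences of all 29 were positive, and 28 lay above day 1 controls with no overlap of arrays, as did 12.8% of all genes. Mki67, the marker of dividing cells, was higher by 0.30 ± 0.05 (SE, limma adjusted p = 0.0332), and Cdc20, which activates the anaphase-promoting complex, by 0.48 ± 0.08 (limma adjusted p = 0.0261). The mitotic kinase Cdk1 differed by 0.24 and did not pass (limma adjusted p = 0.308). In day 3 controls all 29 were higher than in day 1 controls, with a median of 1.27, where 11.2% of all genes were higher. All 29 were lower on the day 3 arrays labelled depleted than in day 3 controls (median -0.97), where 16.4% of all genes were higher and 9.73% lower. On the day 1 arrays labelled depleted the linear levels of the list summed to 11477 to 11850, against 15120 to 15217 in day 1 controls. The count of 9 fell to 3 without either array labelled Jmjd2a-depleted or without Jmjd2c replicate 1, to 6 without Jmjd2c replicate 2, and to 0 and 2 without day 1 control replicates 1 and 2. It was 17 without day 3 control replicate 2.

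Genes of mitosis commonly carry a cell cycle homology region (CHR) and CCAAT boxes near their start, elements bound by the MuvB complex and by NF-Y. The stretch before the start is shown for 3 called genes with letters matching both elements, and binding was not tested. In Ccnb2 the CHR match, at positions -167 to -162 from the start, lies before all its CCAAT matches. The sequences are from RefSeq (GRCm38.p6), 5′ to 3′ on the gene's strand, at chr9:70421555-70421769 (minus strand) for Ccnb2, chr4:118437344-118437558 (minus) for Cdc20 and chr2:164769714-164769928 (plus) for Ube2c. Capitals mark TTTGAA or TTCGAA (CHR) and CCAAT, on either strand.
Ccnb2: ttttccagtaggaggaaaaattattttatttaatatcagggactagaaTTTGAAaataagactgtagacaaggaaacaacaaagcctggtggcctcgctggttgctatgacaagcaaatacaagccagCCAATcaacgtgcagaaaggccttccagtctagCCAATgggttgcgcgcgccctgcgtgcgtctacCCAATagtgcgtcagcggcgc
Cdc20: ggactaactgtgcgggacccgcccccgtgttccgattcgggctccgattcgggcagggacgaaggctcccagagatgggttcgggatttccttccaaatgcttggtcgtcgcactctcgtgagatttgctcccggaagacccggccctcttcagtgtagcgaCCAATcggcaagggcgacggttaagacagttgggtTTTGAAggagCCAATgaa
Ube2c: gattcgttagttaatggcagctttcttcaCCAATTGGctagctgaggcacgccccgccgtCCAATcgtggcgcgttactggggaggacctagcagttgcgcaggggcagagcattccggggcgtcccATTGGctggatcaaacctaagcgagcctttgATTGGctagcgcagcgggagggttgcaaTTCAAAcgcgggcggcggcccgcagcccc
Among the 9 called mitosis genes, 4 had a CHR match and 7 a CCAAT match in the 250 bases before the start. Among the 24 measured mitosis genes with a promoter in the table, 10 and 19 did. Of 32851 promoters of the same length 17.1% held a CHR match and 33.8% a CCAAT match. In Ube2c the CCAAT matches at positions -186 to -182 and -183 to -179 from the start overlap on opposite strands.

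**Figure D2:**
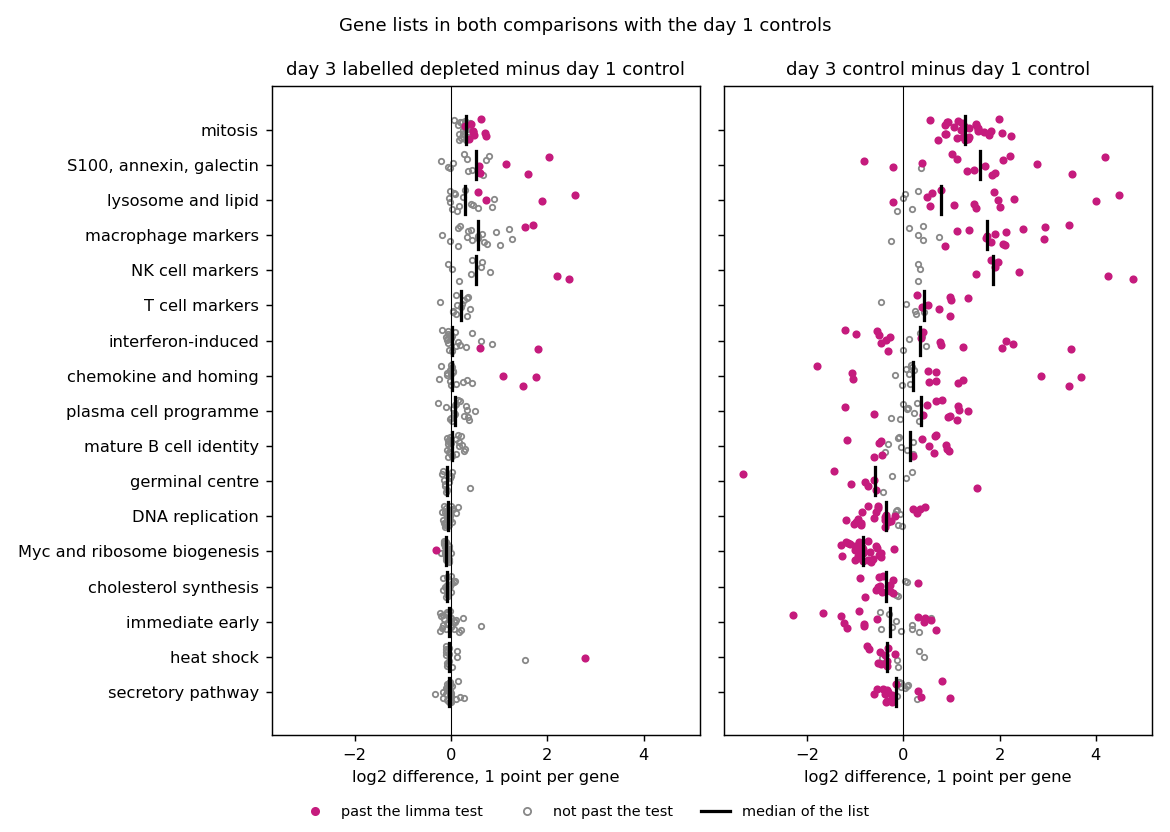
Each point is a gene of a list (row), placed by its log2 difference of day 3 arrays labelled depleted minus day 1 controls (left) or of day 3 controls minus day 1 controls (right), filled where it passed the limma test, with a bar at the list's median. Both panels share the day 1 controls. The medians of mitosis were 0.32 and 1.27, and those of Myc and ribosome biogenesis -0.10 and -0.85.

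Chemokines and their receptors gave 3 rises among 20 genes, where 0.374% of all genes were higher, with a list median of 0.02. Cxcl10, a chemokine induced by interferon gamma, read 7.59, 7.41, 7.96 and 7.48 on the day 3 arrays labelled depleted, 9.38 and 9.69 in day 3 controls, and 5.75 and 5.93 in day 1 controls. Its receptor Cxcr3 read 8.37, 8.07, 8.44 and 8.27 on the day 3 arrays labelled depleted, 10.14 and 9.99 in day 3 controls, and 7.21 and 7.21 in day 1 controls. Ligand and receptor were both above day 1 controls on all 4 arrays, by 1.77 ± 0.19 for Cxcl10 and 1.08 ± 0.12 for Cxcr3 (SE, both limma adjusted p = 0.00198). Ccl22, a chemokine that draws T cells through Ccr4, read 6.98, 6.83, 6.92 and 6.66 on the day 3 arrays labelled depleted, 9.03 and 8.54 in day 3 controls, and 5.21 and 5.48 in day 1 controls (difference from day 1 controls 1.5 ± 0.18, limma adjusted p = 0.00344). All 3 calls ended without day 1 control replicate 1, and that of Cxcr3 also without replicate 2. In day 3 controls 9 of the 20 were higher than in day 1 controls and 3 lower, where 11.2% of all genes were higher and 17.2% lower.

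Guanylate-binding proteins, GTPases of the interferon response, were the called members of the interferon list. Gbp2 had the smallest p of all genes and read 11, 10.80, 10.96 and 10.69 on the day 3 arrays labelled depleted, 12.65 and 12.41 in day 3 controls, and 9.10 and 9.01 in day 1 controls. The difference from day 1 controls was 1.81 ± 0.10 (SE, limma adjusted p = 2e-05). Gbp3 was higher by 0.61 ± 0.10 (limma adjusted p = 0.0265), a call that ended without either day 1 control and without 3 of the 4 day 3 arrays labelled depleted. The other 20 of the 22 interferon-induced genes did not pass (list median 0.02), among them Ifit3 at 0.85 (limma adjusted p = 0.0801) and Mx1 at 0.03. In day 3 controls 9 were higher than in day 1 controls and 8 lower, where 11.2% of all genes were higher and 17.2% lower.

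Interferon-stimulated response elements contain paired GAAA motifs. The stretches before the start of Gbp2 (chr3:142620448-142620662, plus strand) and Cxcl10 (chr5:92348890-92349104, minus strand) are shown because both genes held such a pair, with GAAA, 2 bases of any kind and GAAA again, on either strand, in capitals (RefSeq, GRCm38.p6).
Gbp2: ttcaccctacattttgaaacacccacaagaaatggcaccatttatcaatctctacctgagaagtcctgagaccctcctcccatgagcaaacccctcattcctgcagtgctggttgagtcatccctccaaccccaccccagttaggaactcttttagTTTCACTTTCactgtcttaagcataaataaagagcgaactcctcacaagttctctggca
Cxcl10: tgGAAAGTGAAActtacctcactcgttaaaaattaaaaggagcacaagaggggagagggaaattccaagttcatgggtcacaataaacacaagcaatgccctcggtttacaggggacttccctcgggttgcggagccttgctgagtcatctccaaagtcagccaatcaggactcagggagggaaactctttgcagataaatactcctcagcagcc
Both called interferon genes and 9 of the 17 measured ones with a promoter in the table held the pair in 250 bases, as did 2.98% of 32851 promoters.

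Hspa1b, an inducible heat shock protein of the Hsp70 family, had the largest rise and was the only called gene that was higher than in both control groups. It read 9.69 and 8.32 on the day 3 arrays labelled Jmjd2a-depleted, 9.31 and 8.14 on those labelled Jmjd2c-depleted, 5.68 and 5.59 in day 3 controls, and 5.84 and 6.32 in day 1 controls. Replicate 1 of each label read over 1 log2 unit above replicate 2, and all 4 arrays lay above every control. The difference was 2.79 ± 0.44 from day 1 controls (SE, limma adjusted p = 0.0206) and 3.23 from day 3 controls (limma adjusted p = 0.00022). Day 3 controls differed from day 1 controls by -0.45 (limma adjusted p = 0.563). The call ended without replicate 1 of either label and without either day 1 control. All 3 of its probe sets passed, and on the arrays labelled depleted at day 1 it read 9.61 to 10.85. The near-identical Hspa1a differed from day 1 controls by 1.54 without passing (limma adjusted p = 0.162), and signal of the pair cannot be told apart with certainty. The other 14 heat shock genes did not pass, and the list's median was -0.05, against -0.34 for day 3 controls. There 10 of 15 were lower than in day 1 controls, as were 17.2% of all genes.

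The heat shock element is built of GAA units facing each other. The stretch before the start of Hspa1b (chr17:34959239-34959453, minus strand) is shown with GAANNTTC and CCAAT, on either strand, in capitals (RefSeq, GRCm38.p6).
Hspa1b: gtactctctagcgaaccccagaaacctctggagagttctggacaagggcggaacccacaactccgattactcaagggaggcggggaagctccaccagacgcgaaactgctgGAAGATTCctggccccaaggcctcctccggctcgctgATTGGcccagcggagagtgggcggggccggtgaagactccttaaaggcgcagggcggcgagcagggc
Of 12 measured heat shock genes with a promoter in the table, 6 held GAANNTTC in 250 bases, as did 6.69% of 32851 promoters.

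Only 2 genes were lower than in day 1 controls, and their day 3 controls differed. Nop58, a core protein of box C/D ribonucleoproteins that guide ribosomal RNA methylation, read 11.81, 11.82, 11.82 and 11.80 on the day 3 arrays labelled depleted, 11.13 and 11.11 in day 3 controls, and 12.12 and 12.14 in day 1 controls. It was lower than in day 1 controls by limma (log2 difference -0.31 ± 0.06 SE, adjusted p = 0.0461) and higher than in day 3 controls (0.69). Kdm5a, a demethylase of histone H3 lysine 4, read 8.61, 8.54, 8.60 and 8.33 on the day 3 arrays labelled depleted, 8.95 and 8.77 in day 3 controls, and 9.13 and 8.96 in day 1 controls. It was the lowest on all 4 arrays labelled depleted, with a log2 difference of -0.52 ± 0.09 from day 1 controls (limma adjusted p = 0.0448) and -0.34 from day 3 controls (limma adjusted p = 0.0209). Of its 5 other probe sets 1 passed (-0.45), and the one nearest in brightness differed by -0.03 (limma adjusted p = 0.993). The other 18 histone demethylases did not pass. Both calls ended without any 1 of the 6 arrays. Nop58 was the only called gene of 28 Myc and ribosome biogenesis genes, of which 21 lay below day 1 controls with no overlap of arrays, where 11.5% of all genes did.

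The lower probe sets were mostly not the brightest of their gene. Of 37, 27 named 1 gene, from 24 genes, and for 22 of these genes the brightest probe set did not pass, with differences of -0.58 to 0.11. The following were chosen after their values were seen. A probe set of Malat1, a nuclear noncoding RNA, read 7.31, 7.63, 7.37 and 7.31 on the day 3 arrays labelled depleted, 7.94 and 7.52 in day 3 controls, and 8.68 and 8.31 in day 1 controls. It differed from day 1 controls by -1.09, and the brightest Malat1 probe set by -0.58 without passing (limma adjusted p = 0.63). A probe set of Ddx6, an RNA helicase of messenger RNA storage and decay, read 9.85, 9.77, 9.79 and 9.72 on the day 3 arrays labelled depleted, 10.56 and 10.37 in day 3 controls, and 10.68 and 10.63 in day 1 controls. It was lower than both control groups by limma (log2 difference -0.87 from day 1 controls and -0.68 from day 3 controls), and the brightest Ddx6 probe set differed by 0.08. Hnrnpab, an RNA-binding protein, had a probe set with a difference of -0.57 on the day 3 arrays labelled depleted and 0.65 in day 3 controls. Splicing factors Srsf11, Pnn and Sf3b1 had probe sets with differences of -0.91, -0.73 and -0.33. A pair of dimmer probe sets of the cyclin Ccnd2 passed at -0.51 and -0.43, while its brightest differed by -0.16 (limma adjusted p = 0.325). In total 12 of the 37 were also lower than in day 3 controls past the test and 8 were higher.

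**Figure D3:**
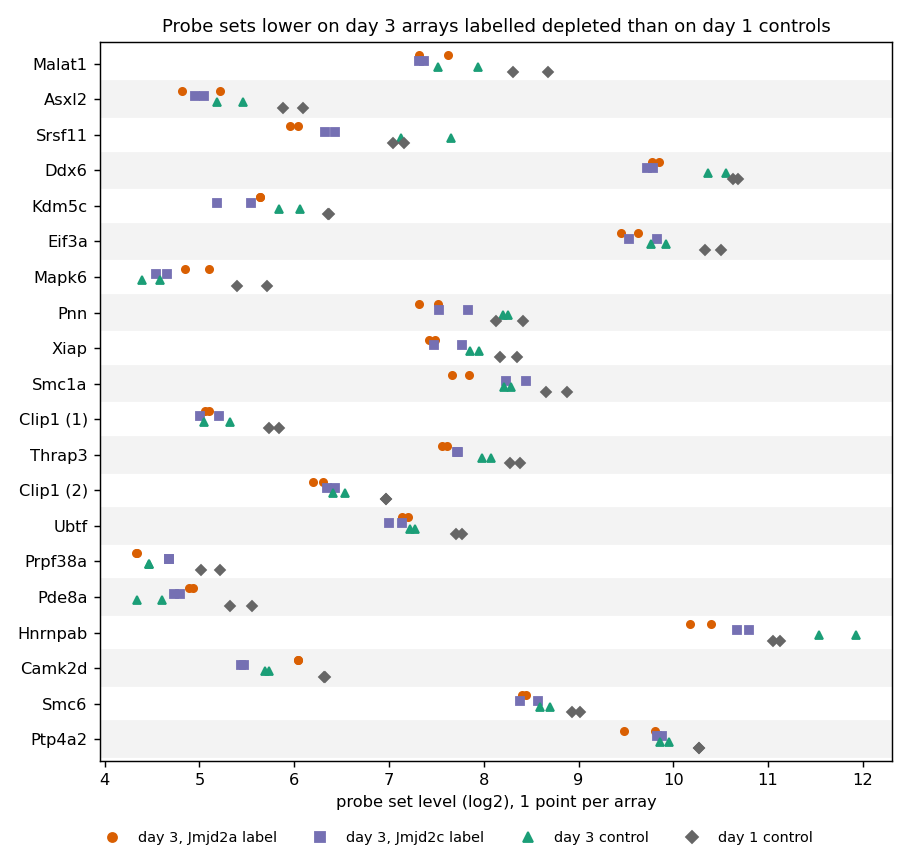
Each row is 1 of the 20 probe sets naming a single gene with the largest falls on the day 3 arrays labelled depleted against day 1 controls; points are the deposited log2 levels of single arrays (horizontal axis) in the 4 groups. The Ddx6 and Hnrnpab probe sets lie below both control groups on all 4 arrays labelled depleted.

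No gene of the plasma cell programme passed between the day 3 arrays labelled depleted and day 1 controls. Of 20 genes 0 passed in either direction (median 0.08). Over all genes 0.374% were higher and 0.011% lower, so 0 of 20 is near that share. The differences of 16 were positive. With no overlap of arrays, 11 lay above and 2 below day 1 controls, as did 12.8% and 11.5% of all genes. In day 3 controls 10 of the 20 were higher than in day 1 controls and 2 lower (median 0.37), where 11.2% of all genes were higher and 17.2% lower. Prdm1, the repressor that sets the plasma cell fate, read 7.67, 7.58, 7.41 and 7.40 on the day 3 arrays labelled depleted, 7.81 and 7.34 in day 3 controls, and 7.52 and 7.42 in day 1 controls. Xbp1, the transcription factor of the secretory apparatus, read 11.90, 11.85, 11.92 and 11.89 on the day 3 arrays labelled depleted, 12.52 and 12.59 in day 3 controls, and 11.71 and 11.79 in day 1 controls. Prdm1 overlapped between all groups, while Xbp1 lay slightly above day 1 controls on all 4 arrays (0.14, 95% interval 0.03 to 0.24, limma adjusted p = 0.479). Jchain, which links secreted IgM and IgA, read 11.70, 11.67, 11.75 and 11.63 on the day 3 arrays labelled depleted, 12.54 and 12.51 in day 3 controls, and 11.14 and 11.22 in day 1 controls. Its difference of 0.51 had a 95% interval of 0.22 to 0.80 and did not pass (limma adjusted p = 0.235). Sdc1, the plasma cell surface marker CD138, differed by -0.11 (95% interval -0.28 to 0.05), against -1.20 in day 3 controls.

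Ighm, the heavy chain of IgM, was the called gene of the immunoglobulin list. It read 14.20, 14.11, 14.22 and 14.14 on the day 3 arrays labelled depleted, 14.49 and 14.59 in day 3 controls, and 13.88 and 13.93 in day 1 controls. The groups did not overlap, and the difference from day 1 controls was 0.26 ± 0.04 (SE, limma adjusted p = 0.0101), against 0.63 for day 3 controls. Of its other probe sets 1 passed (0.46), and another bright one differed by -0.06 (limma adjusted p = 0.98). Igkv8-30, a kappa light chain variable gene outside the list, was also higher, by 0.37 ± 0.04 (limma adjusted p = 0.00233), a call that ended without either day 1 control. Only 3 of 14 listed immunoglobulin genes had a probe set of their own, and probe sets of this family can share signal. The largest difference among these 3 was 1.60, of another gene that did not pass, against 3.04 in day 3 controls. The call of Ighm ended without either day 1 control and without replicate 1 of either label.

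**Figure D4:**
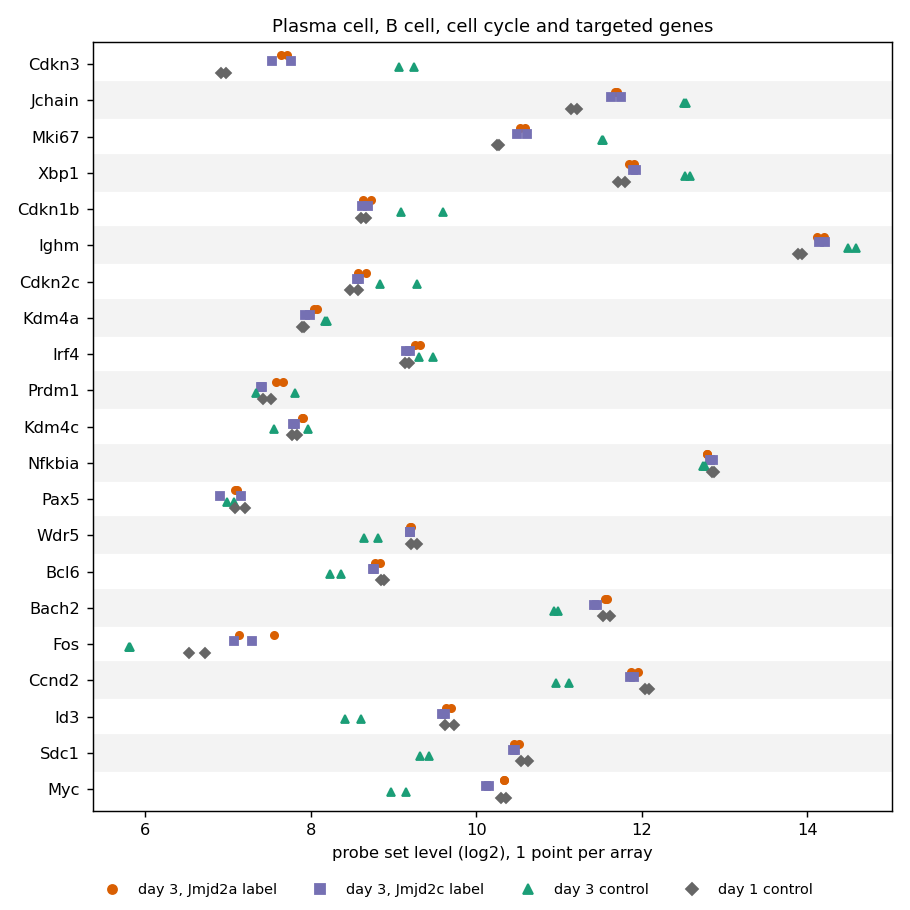
Each point is 1 array's deposited log2 level (horizontal axis) of a gene (row) in the 4 groups. Ighm, Cdkn3 and Mki67 passed the limma test between day 3 labelled depleted and day 1 control, and the other 18 genes did not.

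The genes with the largest falls in day 3 controls did not pass on the day 3 arrays labelled depleted. Pcp4, a small calmodulin-binding protein, read 8.67, 8.58, 8.50 and 8.59 on the day 3 arrays labelled depleted, 4.03 and 4.78 in day 3 controls, and 8.76 and 8.86 in day 1 controls. Rgs13, a regulator of G protein signals found in germinal centre B cells, read 8.29, 8.45, 8.20 and 8.34 on the day 3 arrays labelled depleted, 5.45 and 4.93 in day 3 controls, and 8.47 and 8.55 in day 1 controls. Maf, a transcription factor of the AP-1 superfamily, read 8.55, 8.55, 8.23 and 8.29 on the day 3 arrays labelled depleted, 5.96 and 5.34 in day 3 controls, and 8.76 and 8.77 in day 1 controls. All 3 lay below day 1 controls on all 4 arrays, by far less than day 3 controls did. The differences from day 1 controls were -0.22 (95% interval -0.56 to 0.11), -0.19 (-0.53 to 0.15) and -0.36 (-0.65 to -0.07), against -4.40, -3.32 and -3.11 in day 3 controls. None of the 10 genes with the largest falls in day 3 controls passed, where 0.011% of all genes were lower. On the linear scale the differences of Pcp4, Rgs13 and Maf were 10.8%, 10.5% and 24.3% of those of day 3 controls. With the day 1 controls exchanged they were 19.3%, 16.8% and 24.8%. At the same fold change in controls, a partial linear share is a smaller log2 difference for a fall than for a rise. The log2 test is therefore not an equal measure of both. Myc itself read 10.33, 10.34, 10.12 and 10.15 on the day 3 arrays labelled depleted, 9.15 and 8.97 in day 3 controls, and 10.36 and 10.30 in day 1 controls (difference from day 1 controls -0.09, limma adjusted p = 0.942).

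Other lists had few or no called members on the day 3 arrays labelled depleted, where 0.374% of all genes were higher and 0.011% lower. A count of 0 in lists of this length is near that share. In day 3 controls 11.2% of all genes were higher than in day 1 controls and 17.2% lower. All 28 Myc and ribosome biogenesis genes were lower in day 3 controls than in day 1 controls (median -0.85), and on the day 3 arrays labelled depleted their median was -0.10. Of 30 DNA replication genes 0 passed on the day 3 arrays labelled depleted (median -0.05), against 4 higher and 20 lower in day 3 controls (median -0.36). With no overlap of arrays, 3 of the 30 lay above and 13 below day 1 controls, as did 12.8% and 11.5% of all genes. Of 18 cholesterol synthesis genes 0 passed, against 1 higher and 13 lower in day 3 controls, and of 12 germinal centre genes 0 passed, against 1 higher and 7 lower. By the same count of arrays that did not overlap, 1 cholesterol gene lay above and 11 below day 1 controls, and 1 germinal centre gene above and 5 below. For the next 2 lists, those of mature B cell identity and immediate early genes, 7 and 3 lay above and 0 and 7 below. Of 22 genes of mature B cell identity 0 passed, against 9 higher and 5 lower in day 3 controls, and Pax5, the factor that keeps B cell identity, differed from day 1 controls by -0.08 (95% interval -0.34 to 0.18). Of 24 immediate early genes 0 passed, against 5 higher and 9 lower in day 3 controls, although Fos, a subunit of AP-1, read 7.55, 7.13, 7.29 and 7.08 on the day 3 arrays labelled depleted, 5.80 and 5.82 in day 3 controls, and 6.53 and 6.73 in day 1 controls. Fos lay above both control groups on all 4 arrays, by 0.63 from day 1 controls (limma adjusted p = 0.0989) and 1.45 from day 3 controls (limma adjusted p = 1.36e-05).

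The size of the partial change was set on the linear scale, as the difference of the arrays labelled depleted from a day 1 control divided by the difference of day 3 controls from the other day 1 control. This is a description with no test, over genes that changed at least 2-fold past the test in day 3 controls. The day 1 arrays labelled depleted do not enter it, so a share is not a change over time in those cells. The higher of their 2 control means also had to lie above the median of all probe set means (5.22). For 355 genes that were higher in day 3 controls the median share was 19.5% (quartiles 16.7% to 23.3%). For 286 genes that were lower it was 17.8% (quartiles 11.5% to 24.6%), with 13 below 0 and 10 over 50%. Exchanging the day 1 controls gave 18.7% and 17.8%. For the rises the medians of single arrays were 21.6% and 17.6% for Jmjd2a replicates 1 and 2, and 22.6% and 16.1% for Jmjd2c replicates 1 and 2. For the falls they varied more, at 15.4% and 11% for Jmjd2a replicates 1 and 2, and 27.1% and 19.1% for Jmjd2c replicates 1 and 2. Against day 3 control replicate 1 alone the median of the rises was 18%, and against replicate 2 alone 21.7%.

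On this scale the medians of lists of unlike function lay between 11.7% and 24%. The median share was 17.2% over 22 mitosis genes (12.8% to 24.5%) and 20.8% over 12 S100, annexin and galectin genes (18.7% to 23.1%). It was 22.4% over 13 macrophage markers (14.3% to 30.6%) and 18.9% over 6 NK cell markers (14.4% to 32.8%). For 9 lysosome and lipid genes it was 24% (16.7% to 37.6%), and for 5 plasma cell genes, 4 of them rises, 22.6% (7.2% to 29.9%). For 7 Myc and ribosome biogenesis genes it was 11.7% (7.6% to 36.7%). These genes were chosen by their change in day 3 controls, which also sets the divisor, and most lists hold few of them. Single genes ranged more widely: Gzma reached 18%, Gzmb 20.6%, Gbp2 24.3%, Ccnb2 18%, Jchain 29.9%, Nop58 36.7% and Ifitm1, an interferon-induced membrane protein, 29.6%.

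**Figure D5:**
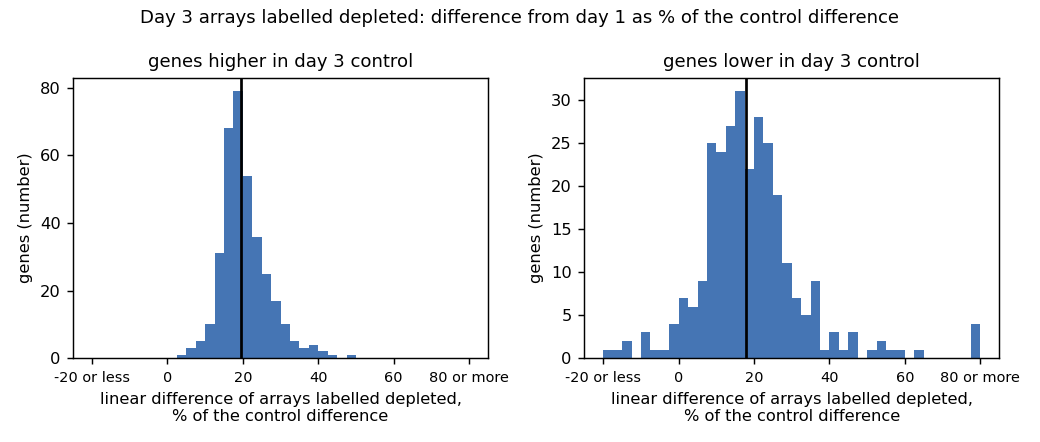
Number of genes (vertical axis) by the linear difference of day 3 arrays labelled depleted from day 1 control as a percentage of the difference of day 3 controls (horizontal axis). Shown are 355 genes higher (left) and 286 lower (right) in day 3 controls by at least 2-fold past the test. The higher control mean of each lay above the median of all probe set means. Values past either end are in the end bars. Lines mark the medians, 19.5% and 17.8%.

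Each label was also set singly against day 1 controls. There were 75 called probe sets for Jmjd2a (0.167%), 58 higher and 17 lower, and 72 for Jmjd2c (0.16%), 60 higher and 12 lower. The counts lay further apart with array weights (567 for Jmjd2a and 1575 for Jmjd2c), with only the arrays compared (1467 and 3886) and without day 3 control replicate 2 (205 and 687). Set against each other, the Jmjd2a and Jmjd2c arrays of day 3 differed in 0 probe sets (0%) by limma, with 2571 at an unadjusted p under 0.05. That count was 26 with array weights, 66 without day 3 control replicate 2 and 1086 with only the 4 arrays themselves. For the leading genes the differences from day 1 controls were close: 2.44 for the Jmjd2a label and 2.48 for the Jmjd2c label for Gzma, 2.13 and 2.27 for Gzmb, and 1.84 and 1.77 for Gbp2. The 95% interval of the difference between labels was -0.64 to 0.55 for Gzma, -0.48 to 0.20 for Gzmb and -0.17 to 0.32 for Gbp2.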

How the data were processed

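RNA from 12 samples was measured on Affymetrix arrays, 2 per group in 6 groups. The values are log2 levels per probe set deposited by the authors; how they were normalized is not stated in any source used. There is no read depth on arrays, and precision is limited by their number. Probe sets were named through the platform annotation: 34945 named 1 gene, 932 several and 9160 none, and 64 control probe sets were left out. A gene was represented by its brightest probe set over all arrays that named it alone (18193 genes).

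Means of the 6 groups were fitted with limma 3.58.1 in R 4.3.3 (lmFit, eBayes with trend), with Benjamini-Hochberg adjustment over 45037 probe sets and a threshold of 0.05. The procedure was tested on simulated data. Figures were drawn with Python 3.11.15 and matplotlib 3.10.9. The members and the 35 gene lists were chosen with earlier results of these data known.

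The rule for named genes took a fixed set of plasma cell, B cell and cell cycle genes, the 12 largest rises and falls, up to 4 called members of each list, the 10 largest changes in controls and 8 changes shared with them in each direction, and changes not seen in controls; not all are printed. Other genes are list members given to show those that did not pass, or are said to be chosen after their values were seen. Replicate numbers were checked as pairs: the correlations of replicate differences were -0.11 to 0.07, so the numbers were not taken to pair the arrays. Alternatives were quantile normalization, median centring, a filter on dim probe sets, no trend, array weights, 1 probe set per gene, an adjusted p of 0.1, a 1.5-fold floor, a replicate block, only the arrays compared, and leaving out arrays.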

Additional observations from a re-analysis of the deposited data

Results flagged for a closer look

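Among 98 named genes, 5 had 1 of the 4 day 3 arrays labelled depleted far from the others by Dixon's criterion, which chance meets in about 1 in 20 groups. Jmjd2c replicate 1 was high for 2900026A02Rik (7.64, nearest array 7.29), Cdca3 (9.94, nearest 9.85) and Ociad2 (10.22, nearest 10.02). Jmjd2c replicate 2 was low for Gpr34 (4.70, nearest 5.26) and Plac8 (11.87, nearest 11.93). Prdm1 lay above day 1 controls on average for the Jmjd2a label and below them for the Jmjd2c label, and the labels differed by 0.22 (limma adjusted p = 0.852).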

How the results depend on the processing

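Counts of called probe sets depended more on how the spread was estimated than on scaling. For day 3 labelled depleted against day 1 control (145), the count was 75 without the trend, 1179 with array weights, 92 with 1 probe set per gene, 245 at an adjusted p of 0.1, 9 with a 1.5-fold floor, 3090 with only the arrays compared, 579 without day 3 control replicate 2 and 1264 as 2 groups. The same settings, where the count moved, gave 19, 567, 43, 8, 1467 and 205 for the Jmjd2a label (no trend, weights, 1 per gene, floor, own arrays, without day 3 control replicate 2). For the Jmjd2c label they gave 27, 1575, 9, 3886 and 687 (no trend, weights, floor, own arrays, without that control), 130 at an adjusted p of 0.1 and 109 with quantile normalization. Jmjd2a against Jmjd2c gave 26, 1086 and 66 (weights, own arrays, without that control). Day 3 against day 1 control gave 5627, 1050 and 4853 (1 per gene, floor, own arrays), and day 3 labelled depleted against day 3 control 5095, 5220 and 535 (weights, 1 per gene, floor). The causes were not tested.

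The split into higher and lower moved to 565 and 614 with array weights and to 1225 and 1865 with only the arrays compared. Day 3 labelled depleted against day 3 control split into 6151 higher and 3286 lower, and into 5613 and 4124 with quantile normalization.

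With 1 array left out, the counts were 16 to 93 for the pooled comparison, 8 to 21 for the Jmjd2a label, 8 to 40 for the Jmjd2c label, 0 to 0 between labels, 6066 to 18044 for day 3 against day 1 control and 6863 to 16489 for day 3 labelled depleted against day 3 control. The highest counts of the last 2 came without day 3 control replicate 1. With the replicate number as a block the pooled count was 184. A crossed pairing of Jmjd2a with day 1 controls, added after seeing the data, gave 80.

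Signs turned for 4 genes, none of them past the test under the settings that turned them. Under quantile normalization, Kdm4c in day 3 against day 1 control became 0.127 and Pax5 0.0258, and for day 3 labelled depleted against day 3 control Kdm4c became -0.0536 and Pax5 -0.0770. With 1 array left out, Kdm4c ranged from -0.248 to 0.156 in day 3 against day 1 control and from -0.115 to 0.290 for day 3 labelled depleted against day 3 control, and it passed both tests without day 3 control replicate 1. Pax5 ranged from -0.0283 to 0.0974 against day 3 control, and was -0.00737 without day 3 control replicate 2. Prdm1 ranged from -0.128 to 0.343 in day 3 against day 1 control, from -0.298 to 0.173 against day 3 control and from -0.00849 to 0.0972 in the pooled comparison, where Id3 ranged from -0.0925 to 0.0175.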
